A study of Mus musculus with 12 samples.

Results

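The 35 genes described here encode the core machinery of mitosis, and they were picked by symbol from 21728 genes found in any count file. They were sorted by role into 8 groups: 6 mitotic entry cyclins and kinases, 4 members of the chromosomal passenger complex, 4 spindle assembly checkpoint genes, 2 partners of the anaphase-promoting complex, 5 centromere and kinetochore genes, 5 spindle motor and microtubule genes, 5 central spindle and cytokinesis genes and 4 genes of chromosome structure. All 35 were listed in every library, with 518 to 36537 counts per gene and library, and all 35 passed the filter on low counts in every comparison.

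The data were mRNA counts from 12 libraries of mouse cells in 4 groups of 3. Primordial germ cell-like cells (PGCLCs) of the bisphenol A (BPA) arm and untreated PGCLCs were both taken at day 5, and epiblast-like cells (EpiLCs) given 100 nM BPA and untreated EpiLCs were both cultured for 48 h. All of them came from C57BL/6 embryonic stem cells that carry the Blimp1-mVenus and Stella-ECFP reporters (BVSC), so the reporters are shared by BPA and untreated cells. BPA, a plasticizer with oestrogen-like activity, was put into EpiLC medium 24 h after seeding for 24 h. Whether the PGCLC medium held it too is not stated. PGCLCs were sorted for both reporters, no sort is given for EpiLCs, and both are culture models from 1 named reporter genotype, with no statement on how many clones were used. Whether replicates are independent cultures is not stated, and p-values reflect the variation among the libraries at hand, which may be technical.

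Before mitosis, cyclin-dependent kinase 1 joins A- and B-type cyclins, and with the polo-like and aurora kinases it drives chromosome condensation and spindle assembly. The checkpoint then holds back the anaphase-promoting complex until all kinetochores are attached to microtubules, after which cyclin B is destroyed, sister chromatids part and the cell divides. Most of these genes are transcribed late in the cell cycle, under MuvB complexes with the factors Mybl2 and Foxm1 and under NF-Y, which bind cell cycle homology regions and CCAAT boxes in their promoters. Early germ cells of the mouse embryo are known for a phase of slow cycling, while cells of the epiblast divide fast.

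Libraries held 11785338 to 34309195 counts assigned to genes. Germ cell markers were checked first. All 8 were listed in every PGCLC library, with a summed level of 870.1 to 938 counts-per-million (CPM) in BPA PGCLCs and 974 to 1123 CPM in untreated PGCLCs. EpiLC libraries had 78.7 to 82.1 CPM with BPA and 72.3 to 79.7 CPM untreated, and did not list Prdm14. All 8 epiblast markers were listed in every EpiLC library and in every PGCLC library. Their summed level was 1623 to 1681 CPM in BPA EpiLCs and 1439 to 1716 CPM in untreated EpiLCs. PGCLC libraries had 492 to 573 CPM with BPA and 524 to 541 CPM untreated. Dnmt3a and Dnmt3b made up most of the EpiLC sum, with means of 676 and 638 CPM in untreated EpiLCs. In each stage comparison 5 of the 8 (62.5%) were lower in PGCLCs and 2 (25%) higher, at an adjusted p under 0.05 by the edgeR test used below. Of all genes, 25.0% were lower and 32.5% higher in BPA cells, and 25.2% lower and 30.4% higher in untreated cells. Fgf5 averaged 5.11 CPM in untreated PGCLCs and 7.05 CPM in untreated EpiLCs, and 9.66 CPM in BPA PGCLCs and 6.08 CPM in BPA EpiLCs. Otx2 averaged 77.3 CPM in untreated PGCLCs and 11.5 CPM in untreated EpiLCs. Untreated EpiLC replicate 3 stood apart from its group, and the number in its library description differs from that in its title, which was followed. Library names in the descriptions follow one scheme in all BPA PGCLC libraries and another in all untreated PGCLC libraries, so a difference in library batch and BPA exposure cannot be told apart there. EpiLC and PGCLC libraries are named by different schemes as well. In every comparison between such bulk samples, fewer cells in division and less RNA per cell cannot be told apart.

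Levels of different genes are compared here per kilobase (kb) of the longest principal transcript, as mean ± SD with n = 3. In untreated PGCLCs, Ube2c, the conjugating enzyme of the anaphase-promoting complex, was highest at 299 ± 18.3 CPM per kb, followed by the topoisomerase gene Top2a at 216 ± 6.17 and the complex's activator Cdc20 at 172 ± 10.6 CPM per kb. These values lay farther apart than their SDs. In untreated EpiLCs, Cdc20 had 223 ± 55.2, Ube2c 188 ± 64.1, Ccnb1 167 ± 22.6 and Top2a 159 ± 27.6 CPM per kb, which overlapped within their SDs. At the low end stood Mad2l1 in untreated PGCLCs, with 16.5 ± 0.280 CPM per kb, and Cenpf in untreated EpiLCs, with 13.5 ± 4.32 CPM per kb. In the order of the 35 levels per kb, Cenpf was number 26 in untreated PGCLCs and number 35 in untreated EpiLCs. Mki67 was number 16 in untreated PGCLCs and 29 in untreated EpiLCs, while Cdk1 was number 29 in untreated PGCLCs and 11 in untreated EpiLCs. These orders depend on the transcript taken, above all for Mad2l1 (7.56 kb) and Cdk1 (4.38 kb).

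Promoter sequence was examined because these genes are known to share promoter elements. A window from 250 bases before to 50 bases after the start, from RefSeq on GRCm38.p6 (the mm10 build of the count files), was found for 29 of the 35 genes, and not for Tpx2, Aurkb, Incenp, Kif20a, Ccna2 and Smc4. Both strands were searched for the cell cycle homology region, as TTTGAA or TTCGAA, for CCAAT and for the E2F-like letters GCGGGAA. A gene was counted if any of its windows held the letters. The homology region letters were found for 23 of 29 genes (79.3%), against 21.7% of all 27025 genes with a window. CCAAT was found for 22 of 29 (75.9%), against 41.1% of all genes, and both in the same window for 20 of 29 (69.0%), against 8.61%. The letters GCGGGAA were found for 0 of 29, against 5.29% of all genes. A match describes letters and not a bound site.

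The stretches below run from 120 bases before to 30 bases after the start, 5′ to 3′ on the gene's strand. Capitals mark the homology region (TTTGAA, its reverse TTCAAA, or TTCGAA) and CCAAT (reverse ATTGG). They show 7 genes that were lower in BPA PGCLCs, the 2 genes with the largest rise between stages (Cenpf and Mki67) and Kif23, and were chosen after the values were seen.
Ube2c, chr2:164769809-164769958, plus strand: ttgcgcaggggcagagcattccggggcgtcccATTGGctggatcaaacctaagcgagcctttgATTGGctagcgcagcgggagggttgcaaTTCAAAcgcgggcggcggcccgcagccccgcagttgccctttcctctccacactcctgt
Top2a, chr11:99024160-99024309, minus strand: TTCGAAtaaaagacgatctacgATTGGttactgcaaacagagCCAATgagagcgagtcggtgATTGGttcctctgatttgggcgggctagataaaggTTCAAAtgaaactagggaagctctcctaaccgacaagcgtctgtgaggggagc
Cdk1, chr10:69352883-69353032, minus strand: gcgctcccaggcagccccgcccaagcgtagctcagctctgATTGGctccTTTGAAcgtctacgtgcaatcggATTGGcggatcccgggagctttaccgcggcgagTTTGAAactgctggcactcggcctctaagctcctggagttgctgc
Nusap1, chr2:119618178-119618327, plus strand: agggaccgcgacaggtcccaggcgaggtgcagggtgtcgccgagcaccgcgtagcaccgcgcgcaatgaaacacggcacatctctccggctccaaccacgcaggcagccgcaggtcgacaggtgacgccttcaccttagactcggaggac
Ccnb1, chr13:100786457-100786606, minus strand: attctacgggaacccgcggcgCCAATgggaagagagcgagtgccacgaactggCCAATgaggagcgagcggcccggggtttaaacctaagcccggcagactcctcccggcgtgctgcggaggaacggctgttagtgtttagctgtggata
Cenpa, chr5:30666766-30666915, plus strand: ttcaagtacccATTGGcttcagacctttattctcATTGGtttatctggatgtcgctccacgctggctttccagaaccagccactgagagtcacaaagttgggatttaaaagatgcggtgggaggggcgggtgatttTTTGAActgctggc
Cdc20, chr4:118437314-118437463, minus strand: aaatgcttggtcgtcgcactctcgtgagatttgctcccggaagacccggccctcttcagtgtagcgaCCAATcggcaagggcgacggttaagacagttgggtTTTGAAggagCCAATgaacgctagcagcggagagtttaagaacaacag
Cenpf, chr1:189688057-189688206, minus strand: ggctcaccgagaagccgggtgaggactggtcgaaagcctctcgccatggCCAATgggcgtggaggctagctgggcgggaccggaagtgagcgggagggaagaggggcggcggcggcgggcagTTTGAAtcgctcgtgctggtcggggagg
Mki67, chr7:135716350-135716499, minus strand: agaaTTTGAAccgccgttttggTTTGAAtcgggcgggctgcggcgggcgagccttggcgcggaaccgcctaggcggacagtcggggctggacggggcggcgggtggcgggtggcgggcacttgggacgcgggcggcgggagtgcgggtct
Kif23, chr9:61946770-61946919, minus strand: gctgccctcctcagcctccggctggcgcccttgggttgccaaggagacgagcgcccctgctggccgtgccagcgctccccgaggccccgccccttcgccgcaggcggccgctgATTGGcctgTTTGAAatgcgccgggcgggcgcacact
Cdk1, Top2a and Mki67 each show the homology region letters at 2 places in these stretches. Ccnb1 holds 2 CCAAT boxes without those letters, also in its full window. Nusap1 holds neither, also in its full window, and the same is true of Mad2l1, Nuf2 and Birc5, the last not called lower in BPA PGCLCs. The homology region letters were found for 5 of 9 genes called lower there and for 18 of 20 not called. CCAAT was found for 6 of 9 and 16 of 20.

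In PGCLCs of the BPA arm, 10 of the 35 mitosis genes were lower than in untreated PGCLCs and 0 were higher, at an adjusted p under 0.05 by the edgeR quasi-likelihood test with Benjamini-Hochberg adjustment over 16753 genes. This test called 13.9% of all genes, 5.72% lower and 8.13% higher. With offsets for transcript length and GC content, that split over all genes was 1459 lower and 1009 higher, in place of 959 lower and 1362 higher. The 10 genes were Ube2c, Top2a, Cdk1, Nusap1, Ccnb1, Mad2l1, Cenpa, Cdc20, Nuf2 and Ccna2, with falls between 0.19 and 0.51 on the log2 scale. A log2 change below 0 was found for 33 of 35 genes, against 49.1% of all genes tested, the exceptions being Kif23 and Mki67. The median log2 change was -0.17 over the 35 genes and 0.01 over all genes tested. Groups did not overlap, with BPA lower, for 25 of 35 genes, against 17.5% of all genes, and with BPA higher for 1 (Kif23), against 18.0%. All log2 changes below are given ± SE, CPM values are listed as replicates 1, 2 and 3, and adjusted p-values are from the same edgeR test.

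Of the anaphase-promoting complex partners, both were lower. Ube2c (ENSMUSG00000001403, chromosome 2, 164769898 to 164778822) had 199, 197 and 208 CPM in BPA PGCLCs, against 275, 309 and 285 CPM in untreated PGCLCs. Every BPA library was below every untreated one, the log2 change was -0.51 ± 0.06 (adjusted p = 0.00274), and at 0.701-fold it was the largest change of the 35 genes here. Cdc20 (ENSMUSG00000006398, chromosome 4, 118432901 to 118437352) had 244, 244 and 263 CPM in BPA PGCLCs and 287, 320.3 and 319 CPM in untreated PGCLCs, with no overlap. Its log2 change was -0.29 ± 0.06 (adjusted p = 0.0226).

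Of the mitotic entry genes, Cdk1 and its cyclin partners Ccnb1 and Ccna2 were lower, and groups did not overlap for any of the 6. Cdk1 (ENSMUSG00000019942, chromosome 10, 69335146 to 69352938) had 125, 129 and 136 CPM in BPA PGCLCs, against 175, 171 and 173 CPM in untreated PGCLCs, a log2 change of -0.40 ± 0.06 (adjusted p = 0.00542). Ccnb1, cyclin B1 (ENSMUSG00000041431, chromosome 13, 100778650 to 100786570), had 266, 250.1 and 251 CPM in BPA PGCLCs and 346, 322 and 323 CPM in untreated PGCLCs. Its log2 change was -0.36 ± 0.06 (adjusted p = 0.00743), and replicates within each group differed by less than the groups did. Ccna2, cyclin A2 (ENSMUSG00000027715, chromosome 3, 36564865 to 36572150), averaged 243 ± 5.68 CPM in BPA PGCLCs and 280.0 ± 5.44 CPM in untreated PGCLCs (SD, n = 3 each). It changed least of the 10, by -0.19 ± 0.05 (adjusted p = 0.0399). Ccnb2, the second B-type cyclin, had a log2 change of -0.21 ± 0.07 (adjusted p = 0.0903), the polo-like kinase gene Plk1 -0.16 ± 0.06 (0.115) and the aurora kinase gene Aurka -0.10 ± 0.06 (0.314), none of which passed.

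At the kinetochore, Cenpa, the histone variant that marks centromeres (ENSMUSG00000029177, chromosome 5, 30666777 to 30674830), had 132, 129 and 138 CPM in BPA PGCLCs and 161, 174 and 172 CPM in untreated PGCLCs. Nuf2, a subunit of the microtubule-binding complex named after Ndc80 (ENSMUSG00000026683, chromosome 1, 169497934 to 169531464), had 43.3, 46.3 and 47.1 CPM in BPA PGCLCs and 56.0, 60.9 and 62.7 CPM in untreated PGCLCs. Neither gene overlapped between groups, with log2 changes of -0.34 ± 0.06 (adjusted p = 0.0123) for Cenpa and -0.38 ± 0.09 (adjusted p = 0.0241) for Nuf2. Ndc80 itself, the direct partner of Nuf2, had -0.07 ± 0.08 (adjusted p = 0.644) with overlapping groups. The kinetochore motor gene Cenpe had -0.09 ± 0.06 (adjusted p = 0.401) and the large kinetochore protein gene Cenpf -0.17 ± 0.05 (adjusted p = 0.057). Among the 4 checkpoint genes, Mad2l1, which inhibits Cdc20 until attachment (ENSMUSG00000029910, chromosome 6, 66535390 to 66547220), fell to 98.4, 96.6 and 98.1 CPM in BPA PGCLCs, against 124, 123 and 127 CPM in untreated PGCLCs. Its change was -0.34 ± 0.06 (adjusted p = 0.0102). The kinase genes Bub1 (-0.08), Bub1b (-0.17; 283, 275 and 316 CPM with BPA, 326, 341 and 321 CPM untreated) and Ttk (-0.14) did not pass, with adjusted p of 0.34, 0.124 and 0.228, although no BPA library of any of them reached an untreated one.

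Among the spindle genes, Nusap1, a microtubule-bundling protein (ENSMUSG00000027306, chromosome 2, 119618298 to 119651244), had 122, 124 and 123 CPM in BPA PGCLCs and 162, 167 and 155 CPM in untreated PGCLCs. The change was -0.38 ± 0.06 (adjusted p = 0.00726), with no overlap. The chromosome-arm motor gene Kif4 had 87.1, 88.5 and 79.5 CPM in BPA PGCLCs and 102, 109.6 and 97.0 CPM in untreated PGCLCs, and at -0.26 ± 0.08 it did not pass (adjusted p = 0.068). The remaining spindle genes were nearer to 0: Tpx2, an activator of Aurka, had -0.14 ± 0.08, the bipolar spindle motor gene Kif11 -0.09 ± 0.05 and the microtubule depolymerase gene Kif2c -0.02 ± 0.06. Their adjusted p ran from 0.320 (Tpx2) to 0.875 (Kif2c).

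Top2a, the topoisomerase that untangles sister chromatids (ENSMUSG00000020914, chromosome 11, 98992943 to 99024189), had 886, 878 and 931 CPM in BPA PGCLCs, against 1164, 1101 and 1124 CPM in untreated PGCLCs. Its log2 change of -0.32 ± 0.04 (adjusted p = 0.00411) was the 1 call among the chromosome structure genes. The condensin genes had -0.14 ± 0.05 (Smc2, adjusted p = 0.0955; 232, 232 and 229 CPM with BPA, 256, 256 and 258 CPM untreated) and -0.10 ± 0.05 (Smc4, adjusted p = 0.3). Mki67, which coats mitotic chromosomes and is widely used as a proliferation marker, had 741, 768 and 826 CPM in BPA PGCLCs and 680.4, 779 and 722 CPM in untreated PGCLCs, overlapping groups with a log2 change of 0.11 ± 0.06 (adjusted p = 0.309).

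None of the chromosomal passenger and cytokinesis genes passed. In the passenger complex, which corrects faulty attachments, groups overlapped for all 4 genes. The borealin gene Cdca8 had 108, 110.5 and 116 CPM in BPA PGCLCs and 113, 139 and 134 CPM in untreated PGCLCs, and the survivin gene Birc5 60.9, 67.2 and 66.3 CPM in BPA PGCLCs and 80.7, 61.8 and 79.7 CPM in untreated PGCLCs. Their log2 changes were -0.19 ± 0.09 and -0.18 ± 0.11 (adjusted p = 0.193 and 0.361), while the kinase gene Aurkb had -0.11 ± 0.08 and its activator Incenp -0.04 ± 0.07. For cytokinesis, 4 of 5 genes lay below the untreated libraries without overlap. These were the spindle midzone bundler Prc1 (-0.21 ± 0.07, adjusted p = 0.0934), the motor gene Kif20a (-0.18 ± 0.05, 0.0584), the RhoA exchange factor Ect2 (-0.19 ± 0.06, 0.0762) and the ring scaffold Anln (-0.12 ± 0.06, 0.208). Kif20a had 184, 182 and 193 CPM in BPA PGCLCs and 209, 210.4 and 219.6 CPM in untreated PGCLCs, and Ect2 had 176, 184 and 193 CPM in BPA PGCLCs and 217, 201 and 219 CPM in untreated PGCLCs. Kif23, the motor subunit of centralspindlin, was the opposite case, shown after its values were seen. It had 158, 160.5 and 178 CPM in BPA PGCLCs and 138, 148 and 152 CPM in untreated PGCLCs, every BPA library above every untreated one, but the log2 change of 0.19 ± 0.07 was not past the threshold (adjusted p = 0.104).

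**Figure D1:**
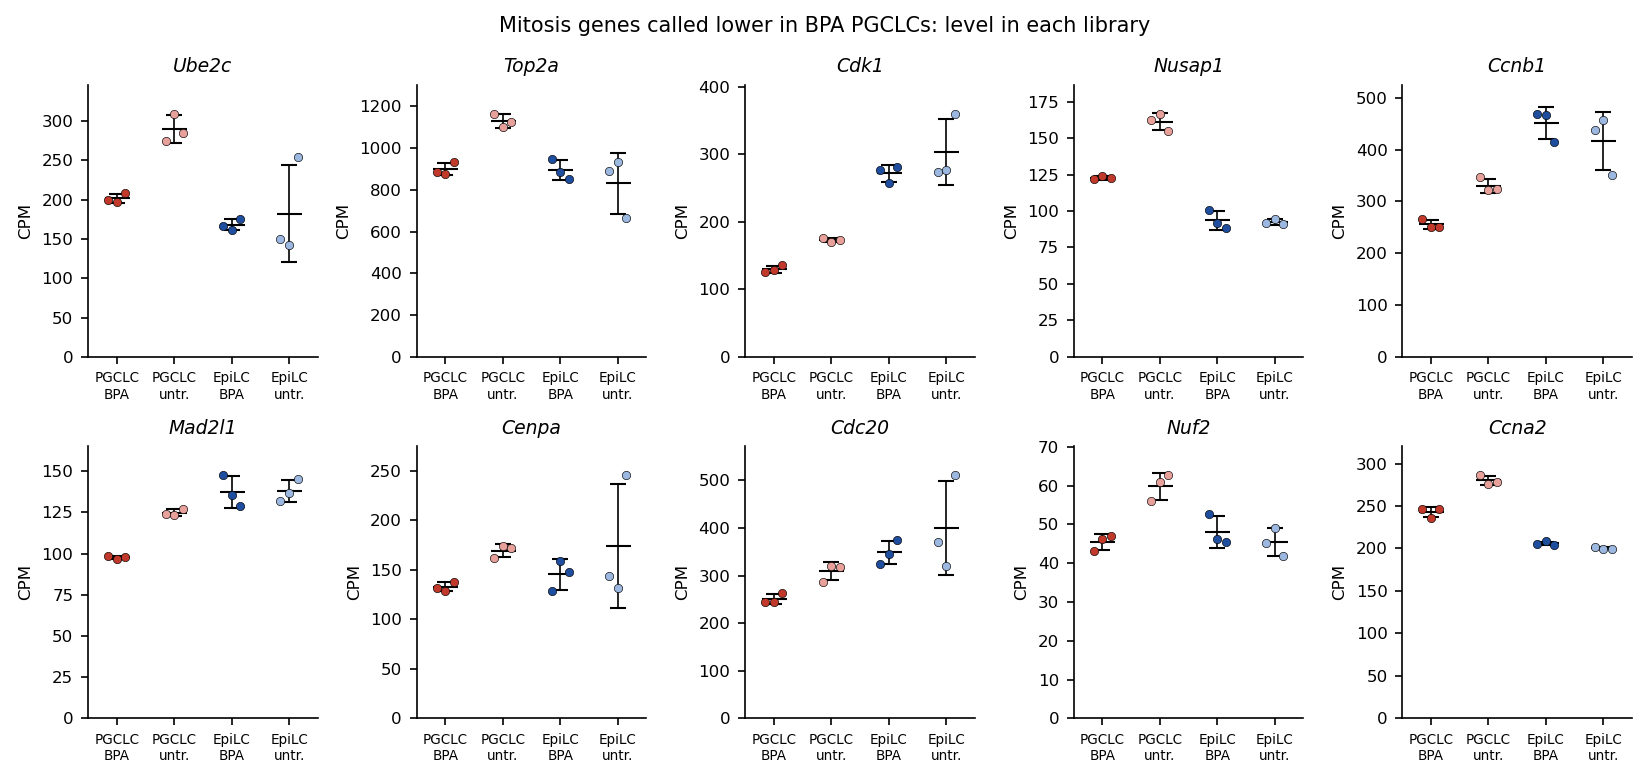
Level of each of the 10 mitosis genes called lower in BPA PGCLCs, in CPM, for the 3 libraries of each group (points), with mean and SD (bars); axes start at 0. For all 10 genes the BPA PGCLC points lie below the untreated PGCLC points, while Ube2c, Cdk1, Cenpa and Cdc20 show 1 high point in untreated EpiLCs, which is replicate 3.

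The summed level of the 35 genes was 7737, 7757 and 8122 CPM in BPA PGCLCs, against 8779, 9058 and 8982 CPM in untreated PGCLCs. BPA replicate 3 was the nearest of its group to the untreated libraries. Endoderm markers moved at the same time: their summed level over 14 genes was 10701, 11238 and 5392 CPM in BPA PGCLCs and 1424, 1015 and 908 CPM in untreated PGCLCs. Of these 14 markers, 9 were higher with BPA and 0 lower, all 14 were listed in every PGCLC library, and BPA replicate 3 had the lowest sum of its group. Germ cell markers included 3 of 8 that were lower and 0 higher, and of 8 trophoblast markers 2 were higher and 1 lower. The part of these markers in the fall of the mitosis genes was not tested. Without BPA replicate 3, 15 of 35 genes were lower, Bub1b, Ccnb2, Cenpf, Ect2 and Kif20a being added. Without BPA replicate 1 or BPA replicate 2, 5 were lower: Ube2c, Top2a, Cdk1, Nusap1 and Ccnb1. Without untreated replicate 3, 6 were lower. Calls over all genes moved too: leaving out 1 library at a time gave 268 to 1271 genes lower and 383 to 1935 higher. With all libraries, 959 were lower and 1362 higher. Cdk1, Ccnb1 and Nusap1 passed in 16 of 16 alternative settings, and Ccna2 in 7. No mitosis gene was called higher in any of these fits.

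**Figure D2:**
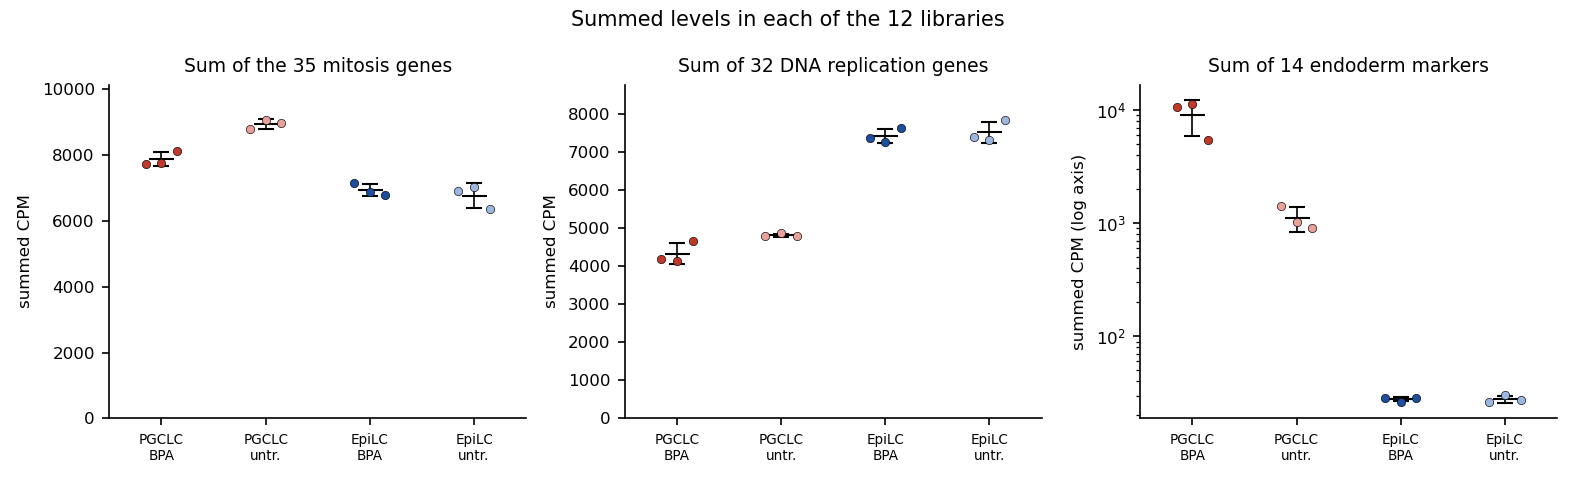
Summed CPM per library (points, with mean and SD) of the 35 mitosis genes, of 32 DNA replication genes and of 14 endoderm markers, the last on a log axis. The mitosis sum is 7737 to 8122 CPM in BPA PGCLCs and 8779 to 9058 CPM in untreated PGCLCs, and the endoderm sum is highest in BPA PGCLCs.

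Other cell cycle genes were read from lists of the pathway. Of 85 other mitosis genes, 11 were lower in BPA PGCLCs (12.9%) and 0 higher (median log2 change -0.15), where 5.72% of all genes were lower and 8.13% higher. The kinase-binding subunit Cks2 had 67.9, 65.2 and 73.8 CPM in BPA PGCLCs and 111, 100.3 and 112 CPM in untreated PGCLCs (-0.63 ± 0.08, adjusted p = 0.00322). The tubulin gene Tubb4b changed by -0.38, and the kinetochore genes Cenpw by -0.69 and Spc24 by -0.49. Of 17 anaphase-promoting complex genes, 1 was lower (5.88%, near the share of all genes), the inhibitor Fbxo5 (-0.33 ± 0.07, adjusted p = 0.0197). Of 32 DNA replication genes, 4 were lower (12.5%) and 0 higher: Rrm2, a ribonucleotide reductase subunit (-0.56 ± 0.08), the flap endonuclease gene Fen1 (-1.39 ± 0.24), the sliding clamp gene Pcna (-0.34 ± 0.06) and Gins1 of the replicative helicase (-0.43 ± 0.11), with adjusted p between 0.00420 (Rrm2) and 0.0428 (Gins1). Of 17 genes of the early cell cycle, 3 were lower (17.6%) and 2 higher (11.8%), against 5.72% and 8.13% of all genes. Their median log2 change was 0.06, and 10 of the 17 were above 0. The kinase genes Cdk6 (-1.10 ± 0.16) and Cdk4 (-0.20 ± 0.05) and the cyclin gene Ccnd3 (-0.43 ± 0.07) were lower. The inhibitor genes Cdkn2a (0.56 ± 0.13) and Cdkn1c (0.55 ± 0.13) were higher. Adjusted p lay between 0.00609 (Cdk6) and 0.0347 (Cdkn1c).

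Of 23 transcription regulators of the cell cycle, 2 were higher and 2 lower (8.70% each), near the 8.13% and 5.72% of all genes. E2f4, the E2F of the repressive MuvB complex, rose by 0.31 ± 0.08 (adjusted p = 0.0355) and E2f6 by 0.41 ± 0.11 (adjusted p = 0.0459), while Rbbp4, a MuvB subunit, fell by 0.34 (adjusted p = 0.00408) and the NF-Y subunit gene Nfyb by 0.32 (adjusted p = 0.0439) on the log2 scale. Foxm1 had 95.8, 102 and 99.4 CPM in BPA PGCLCs and 101, 109.7 and 84.4 CPM in untreated PGCLCs, overlapping groups with a change of 0.03 ± 0.10 (adjusted p = 0.91). Mybl2 had 523, 523 and 516 CPM in BPA PGCLCs and 536, 569 and 585 CPM in untreated PGCLCs, without overlap but not past the threshold (-0.10 ± 0.05, adjusted p = 0.227). Cdkn1a, an inhibitor of cyclin-dependent kinases induced by p53, had 127, 118 and 73.4 CPM in BPA PGCLCs and 68.5, 69.0 and 73.5 CPM in untreated PGCLCs, where BPA replicate 3 lay among the untreated values (0.61 ± 0.19, adjusted p = 0.0673). Cdkn1c, another such inhibitor, had 23.2, 24.4 and 21.1 CPM in BPA PGCLCs and 13.8, 17.4 and 16.2 CPM in untreated PGCLCs, with no overlap.

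In EpiLCs, 0 of the 35 mitosis genes and 0 of 15252 genes tested (0.0%) differed between BPA and untreated cells by the edgeR test. At an unadjusted p under 0.05, 0 of the 35 genes passed, against 0.774% of all genes, and DESeq2 called 4 genes higher and 12 lower over all genes and 0 of the 35. Adjusted p for the 35 genes ran from 0.943 to 0.991, and log2 changes from -0.25 (Birc5) to 0.31 (Smc2), with a median of 0.07, against 0.00 over all genes. A log2 change below 0 was found for 12 of 35 genes, against 49.7% of all genes. Groups did not overlap for Ccna2, with BPA higher (2.5% of all genes), and for Ccnb2 and Aurka, with BPA lower (3.53% of all genes). SEs were wider than in PGCLCs, with a median of 0.06 in PGCLCs and 0.14 in EpiLCs, or 0.07 in EpiLCs without untreated replicate 3. The 4 largest changes were those of Smc2, Birc5, Ect2 and Cenpa. Smc2 had 284, 259 and 246 CPM in BPA EpiLCs and 240.3, 281 and 120.04 CPM in untreated EpiLCs, and Ect2 181, 176 and 139 CPM in BPA EpiLCs and 161, 174 and 84.7 CPM in untreated EpiLCs. Birc5 had 112, 114 and 115 CPM in BPA EpiLCs and 116, 113 and 182 CPM in untreated EpiLCs, and Cenpa 129, 159 and 148 CPM in BPA EpiLCs and 144, 131 and 245 CPM in untreated EpiLCs. In each of the 4, untreated replicate 3 lay outside the other 5 EpiLC libraries, low for Smc2 and Ect2 and high for Birc5 and Cenpa.

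**Figure D3:**
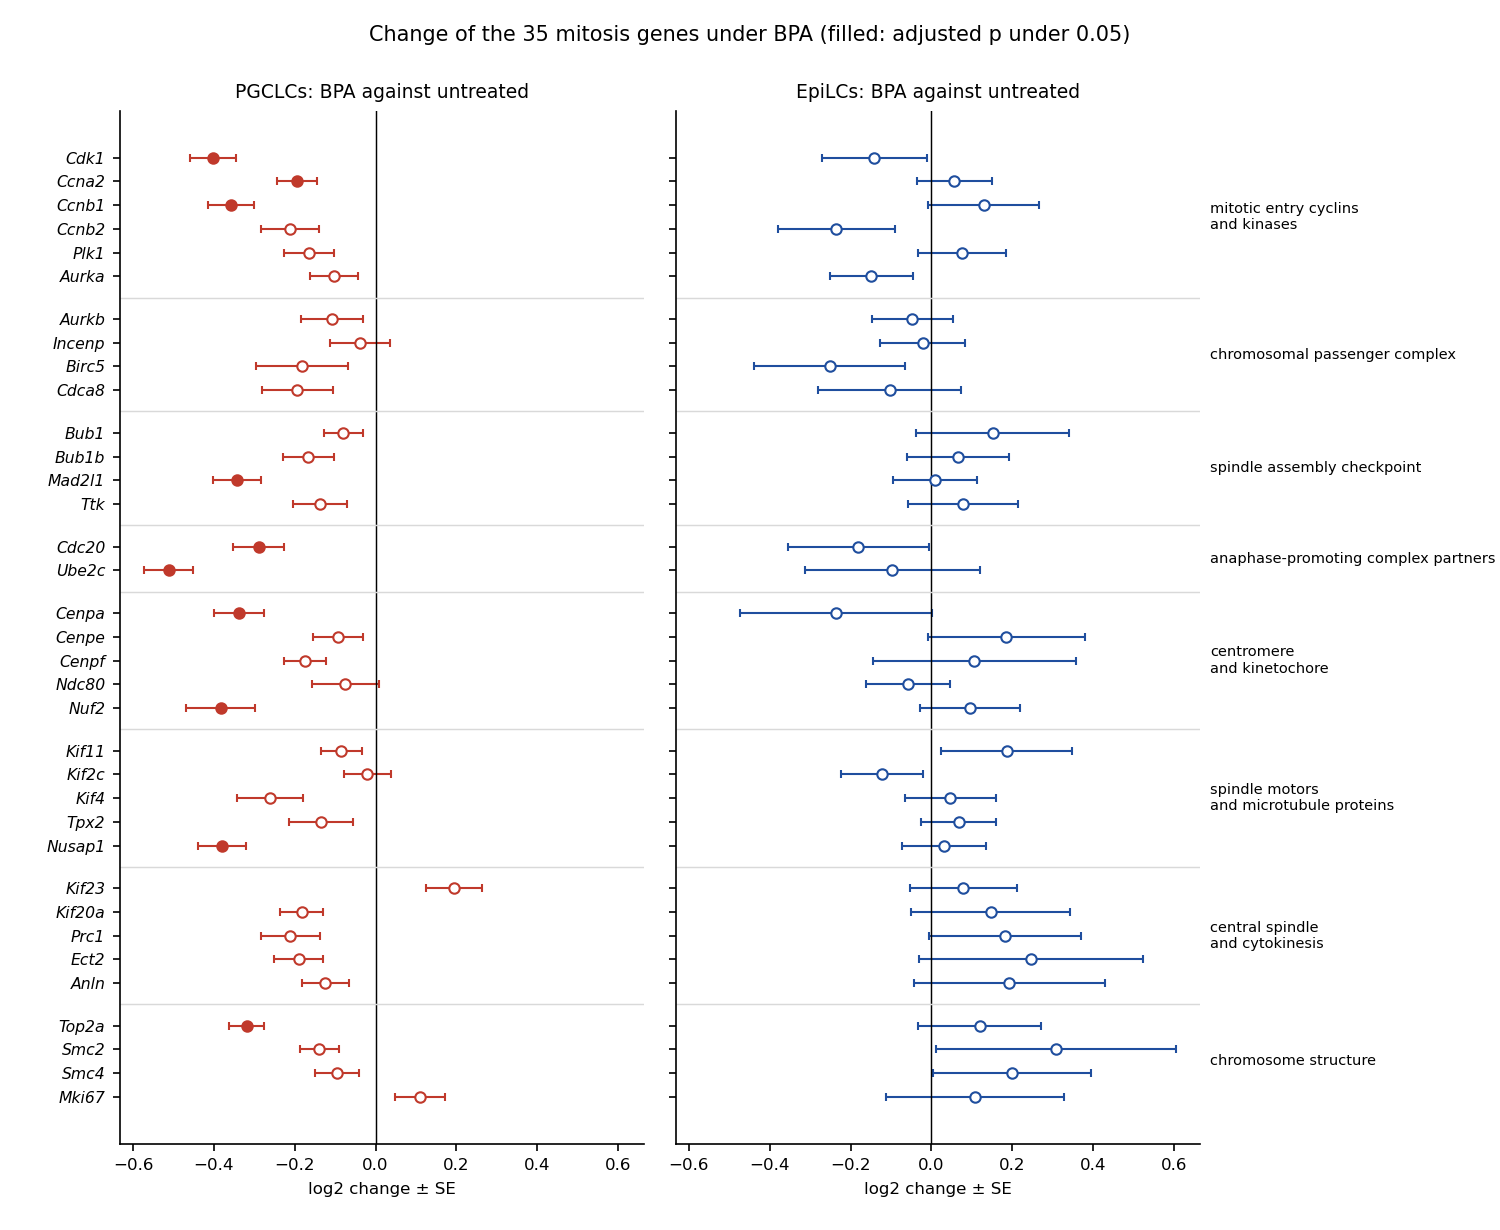
Log2 change of each of the 35 mitosis genes between BPA and untreated cells (points, with SE), by role, in PGCLCs (left) and EpiLCs (right); filled points have an adjusted p under 0.05. In PGCLCs 33 points lie below 0 and 10 are filled, whereas in EpiLCs 12 lie below 0, the bars are wider and none is filled.

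That library was set beside transcript length, because long and short mitosis genes were on opposite sides in it. Of the 35 genes, 12 were above all 5 other EpiLC libraries in untreated replicate 3, with a median transcript of 1.85 kb, and 20 were below all 5, with a median of 4.20 kb. Cenpa (1.47 kb) was 0.84 higher than the mean of replicates 1 and 2 on the log2 scale and Ube2c (0.967 kb) 0.79 higher. Smc2 (5.40 kb) was at -1.12 and Cenpf (11.1 kb) at -0.91. Across genes, which are not independent replicates and share the library, Spearman's rho between this deviation and length was -0.76 over the 35 genes. It was -0.65 over 14094 genes whose mean level was 1 CPM or more. The deviation of BPA EpiLC replicate 3 from the other BPA EpiLC libraries had rho = -0.53 over the 35 genes and -0.24 over the 14094 genes. BPA EpiLC replicate 1 had 0.52 and 0.09, and BPA EpiLC replicate 2 had 0.19 and 0.18. The BPA change in EpiLCs had rho = 0.66 with length over the 35 genes and 0.56 over 13716 genes, whereas the BPA change in PGCLCs had 0.22 over the 35 genes and 0.14 over 13821 genes. Without untreated replicate 3, the median BPA change of the 35 genes in EpiLCs was -0.02, the changes of Smc2 and Birc5 were 0.01 and -0.02, and 0 genes were called.

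**Figure D4:**
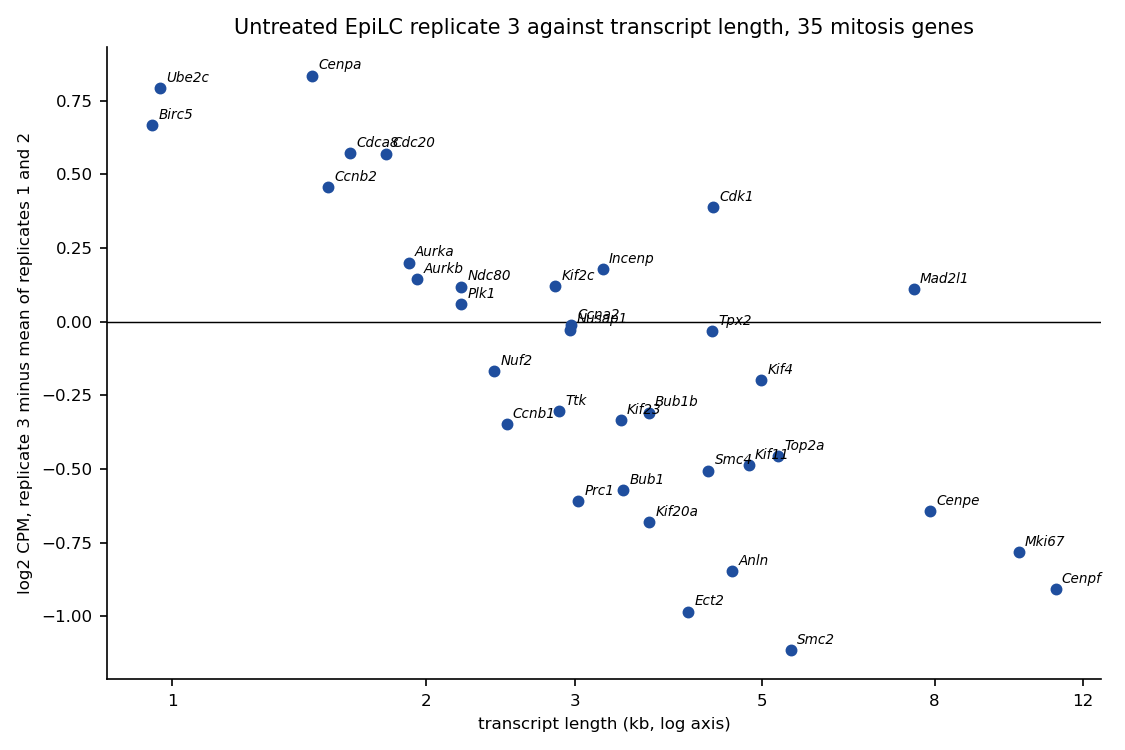
Difference of untreated EpiLC replicate 3 from the mean of untreated EpiLC replicates 1 and 2 (log2 CPM) against transcript length in kb on a log axis, 1 labelled point for each of the 35 mitosis genes. Short genes such as Ube2c and Cenpa lie above 0 and long ones such as Smc2, Mki67 and Cenpf below it; Cdk1 and Mad2l1 lie above 0 at greater length.

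The difference between the BPA effects at both stages, the effect in PGCLCs minus that in EpiLCs, was tested in 1 fit of all 12 libraries. It passed for 0 of the 35 genes, against 232 of 17608 genes (1.32%). At an unadjusted p under 0.05, 7 of the 35 passed, against 13.9% of all genes, and 29 of 35 had a value below 0, against 48.8% of all genes. The largest differences were those of Ccnb1 (-0.49 ± 0.15, adjusted p = 0.147), Nuf2 (-0.48 ± 0.14, 0.148), Smc2 (-0.45 ± 0.31, 0.603) and Ect2 (-0.44 ± 0.30, 0.581). Ccnb1 had 469, 468 and 415 CPM in BPA EpiLCs and 438, 457 and 352 CPM in untreated EpiLCs, and Nuf2 52.8, 46.2 and 45.4 CPM in BPA EpiLCs and 45.1, 49.2 and 42.0 CPM in untreated EpiLCs, with overlapping groups in both genes. Without untreated EpiLC replicate 3, the difference passed for 5 genes: Ube2c (-0.69, adjusted p = 0.00512), Cdk1, Ccnb1, Mad2l1 and Nusap1, the last 4 with values from -0.34 to -0.36. DESeq2 also called 5, namely Nusap1, Ccna2, Nuf2, Ccnb1 and Mad2l1. With offsets for length and GC content, Ube2c, Ccnb1 and Plk1 passed.

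Between stages, the mitosis genes did not move as a block. In BPA-exposed cells, 13 of 35 were higher in PGCLCs than in EpiLCs and 6 lower, where the same test called 57.5% of 17608 genes, 32.5% higher and 25.0% lower. In untreated cells, 24 of 35 were higher in PGCLCs and 4 lower, where it called 55.6% of all genes, 30.4% higher and 25.2% lower. Both contrasts share 1 fit and no library. The 12 genes called higher in both were Ccna2, Ccnb2, Aurkb, Incenp, Cenpe, Cenpf, Kif11, Kif2c, Nusap1, Anln, Smc4 and Mki67. How many of all genes were called in both was not counted, so this overlap has no background. Under the length and GC offsets Cenpe was no longer above 0 in either contrast, Kif2c (0.13 in BPA cells, 0.12 in untreated cells) lost both calls, and Ccna2 (0.13) and Incenp (0.02) lost the call in BPA cells. The 4 called lower in both were Cdk1, Ccnb1, Birc5 and Cdc20. Of these, Birc5 lost both calls under the offsets and Cdc20 (-0.16) the call in untreated cells. In untreated cells the call of Ccnb1 held in 9 of 15 alternatives and that of Cdc20 in 8. Over the 15 alternatives of each contrast, 9 of the 19 calls in BPA cells and 13 of the 28 in untreated cells held in all; those of Cenpe (3), Cdca8 (7), Kif11 (7) and Kif23 (7) in BPA cells and of Ttk (6) and Ndc80 (6) in untreated cells held in fewer than 8. The median log2 change over the 35 genes was 0.18 in BPA cells, against 0.13 over all genes, and 0.40 in untreated cells, against 0.07 over all genes. Groups did not overlap, with PGCLCs higher, for 21 of 35 genes in BPA cells, against 40.5% of all genes, and for 24 in untreated cells, against 32.1%. With PGCLCs lower they did not overlap for 8 genes in BPA cells, against 32.7% of all genes, and for 4 in untreated cells, against 28.2%. Log2 changes below 0 numbered 10 of 35 in BPA cells (45.1% of all genes) and 7 in untreated cells (46.9% of all genes).

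The largest stage differences were in 2 of the longest genes. Cenpf (ENSMUSG00000026605, chromosome 1, 189640606 to 189688086) had 490.4, 493 and 536 CPM in BPA PGCLCs and 175, 156 and 151 CPM in BPA EpiLCs. In untreated cells it had 567, 566 and 596 CPM in PGCLCs and 173, 182 and 94.7 CPM in EpiLCs. Its log2 change was 1.66 ± 0.19 (adjusted p = 1.58e-05) in BPA cells and 1.94 ± 0.19 (adjusted p = 5.58e-06) in untreated cells, or 1.65 without untreated EpiLC replicate 3. Mki67 (ENSMUSG00000031004, chromosome 7, 135689784 to 135716361) had 741, 768 and 826 CPM in BPA PGCLCs and 302, 286 and 289 CPM in BPA EpiLCs, and 680.4, 779 and 722 CPM in untreated PGCLCs and 303, 331 and 185 CPM in untreated EpiLCs. The log2 change was 1.42 ± 0.17 (adjusted p = 2.23e-05) in BPA cells and 1.41 ± 0.17 (adjusted p = 2.67e-05) in untreated cells. For both genes every PGCLC library was above every EpiLC library. With offsets for length and GC content, Cenpf was at 1.09 and Mki67 at 0.54 in untreated cells, both still called. Anln (ENSMUSG00000036777, chromosome 9, 22332012 to 22389188), also higher, had 294, 283 and 264 CPM in untreated PGCLCs and 174, 174 and 96.6 CPM in untreated EpiLCs (0.92 ± 0.18, adjusted p = 0.000937), against 0.64 without untreated EpiLC replicate 3. Nusap1 rose by 0.39 ± 0.08 (adjusted p = 0.00115) in BPA cells and by 0.80 ± 0.08 (adjusted p = 5.42e-06) in untreated cells.

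The mitotic entry genes were split. Cdk1 had 125, 129 and 136 CPM in BPA PGCLCs and 276, 258 and 281 CPM in BPA EpiLCs, and 175, 171 and 173 CPM in untreated PGCLCs and 273, 277 and 360.2 CPM in untreated EpiLCs. It was lower in PGCLCs, with a log2 change of -1.07 ± 0.11 in BPA cells (adjusted p = 5.12e-06) and -0.81 ± 0.11 in untreated cells (adjusted p = 5.29e-05), and no library of a PGCLC group reached an EpiLC one. Ccnb1 had 266, 250.1 and 251 CPM in BPA PGCLCs and 469, 468 and 415 CPM in BPA EpiLCs (-0.82 ± 0.10, adjusted p = 3.35e-05), and 346, 322 and 323 CPM in untreated PGCLCs and 438, 457 and 352 CPM in untreated EpiLCs (-0.33 ± 0.10, adjusted p = 0.0167). The other B-type cyclin went the other way: Ccnb2 had 0.47 ± 0.12 in BPA cells (adjusted p = 0.00661) and 0.44 ± 0.12 in untreated cells (adjusted p = 0.01). Ccna2 was higher in PGCLCs by 0.24 ± 0.07 in BPA cells and 0.48 ± 0.07 in untreated cells (0.0108 and 9.39e-05), and Plk1 was called in untreated cells alone (0.31 ± 0.09, adjusted p = 0.01).

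Within the passenger complex, the subunits also differed. Aurkb rose by 0.39 ± 0.09 in BPA cells and 0.44 ± 0.09 in untreated cells, and Incenp by 0.34 ± 0.09 and 0.35 ± 0.09, with adjusted p between 0.00118 and 0.00799. In BPA cells the call for Incenp was lost with offsets for length and GC content (0.02, adjusted p = 0.807) and without BPA EpiLC replicate 2 (adjusted p = 0.056). Birc5 (ENSMUSG00000017716, chromosome 11, 117849251 to 117855743) had 60.9, 67.2 and 66.3 CPM in BPA PGCLCs and 112, 114 and 115 CPM in BPA EpiLCs, and 80.7, 61.8 and 79.7 CPM in untreated PGCLCs and 116, 113 and 182 CPM in untreated EpiLCs. It was lower in PGCLCs without overlap, with a log2 change of -0.81 ± 0.17 (adjusted p = 0.00151) in BPA cells and -0.89 ± 0.17 (adjusted p = 0.000877) in untreated cells. Birc5 is the shortest of the 35 transcripts at 0.947 kb, and with offsets for length and GC content its changes were -0.26 in BPA cells and -0.25 in untreated cells, no longer called.

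Checkpoint and anaphase genes showed both directions. Mad2l1 was lower in BPA PGCLCs than in BPA EpiLCs (-0.49 ± 0.08, adjusted p = 0.00028) and had -0.14 ± 0.08 in untreated cells (adjusted p = 0.15). In untreated cells it passed with the length and GC offsets (-0.88, adjusted p = 0.00527), with DESeq2 (-0.21, 0.0041) and with the size factors of DESeq2 in edgeR (-0.21, 0.0459). In BPA cells, Bub1 had 0.32 ± 0.14, Bub1b 0.18 ± 0.10 and Ttk 0.06 ± 0.10, which did not pass. In untreated cells, Bub1 (0.55 ± 0.14), Bub1b (0.41 ± 0.10) and Ttk (0.28 ± 0.10) were higher in PGCLCs. Ube2c had 0.26 ± 0.18 in BPA cells (adjusted p = 0.217), where it passed with the offsets (0.79, adjusted p = 1.12e-06) and in a fit of the 6 BPA libraries alone (adjusted p = 0.00316). It was higher in untreated PGCLCs than in untreated EpiLCs by 0.67 ± 0.18 (adjusted p = 0.00668). Cdc20 was lower, with -0.48 ± 0.14 in BPA cells (adjusted p = 0.0138) and -0.37 ± 0.14 in untreated cells (adjusted p = 0.0433), where its groups overlapped. At the kinetochore, Cenpe had 0.37, Ndc80 0.22 and Nuf2 -0.08 in BPA cells, of which Cenpe alone passed. All 3 were higher in untreated PGCLCs than in untreated EpiLCs, by 0.64, 0.23 and 0.40. Cenpa had -0.04 ± 0.19 in untreated cells, but 0.25 without untreated EpiLC replicate 3 (adjusted p = 0.03).

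All 5 spindle genes were higher in untreated PGCLCs, Kif11 by 0.61, Kif4 by 0.45, Tpx2 by 0.29, Kif2c by 0.24 and Nusap1 as above, though Kif4 and Tpx2 were at -0.01 and -0.06 under the length and GC offsets. In BPA cells, 3 of the 5 were higher: Kif11, Kif2c and Nusap1. For cytokinesis, Prc1 (0.62) and Ect2 (0.60) were called with Anln in untreated cells. For Ect2 the value was 0.29 without untreated EpiLC replicate 3, and the call held in 10 of 15 alternatives, lost without any one untreated PGCLC library and in the fit of the 6 untreated libraries alone (adjusted p = 0.12). Called in BPA cells were Kif23 (0.29 ± 0.10, adjusted p = 0.0292) and Anln. Kif20a was not called in either, with -0.26 ± 0.15 in BPA cells and 0.07 ± 0.15 in untreated cells, but was lower in untreated PGCLCs without untreated EpiLC replicate 3 (-0.17, adjusted p = 0.0172). Smc4 was higher in both by 0.47 and 0.77, and Smc2 in neither. Top2a had 886, 878 and 931 CPM in BPA PGCLCs and 946, 885 and 849.7 CPM in BPA EpiLCs, a change of 0.01 ± 0.11 (adjusted p = 0.963). In untreated cells it had 1164, 1101 and 1124 CPM in PGCLCs and 891, 934 and 666 CPM in EpiLCs (0.44 ± 0.11, adjusted p = 0.00538), or -0.01 with the length and GC offsets.

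**Figure D5:**
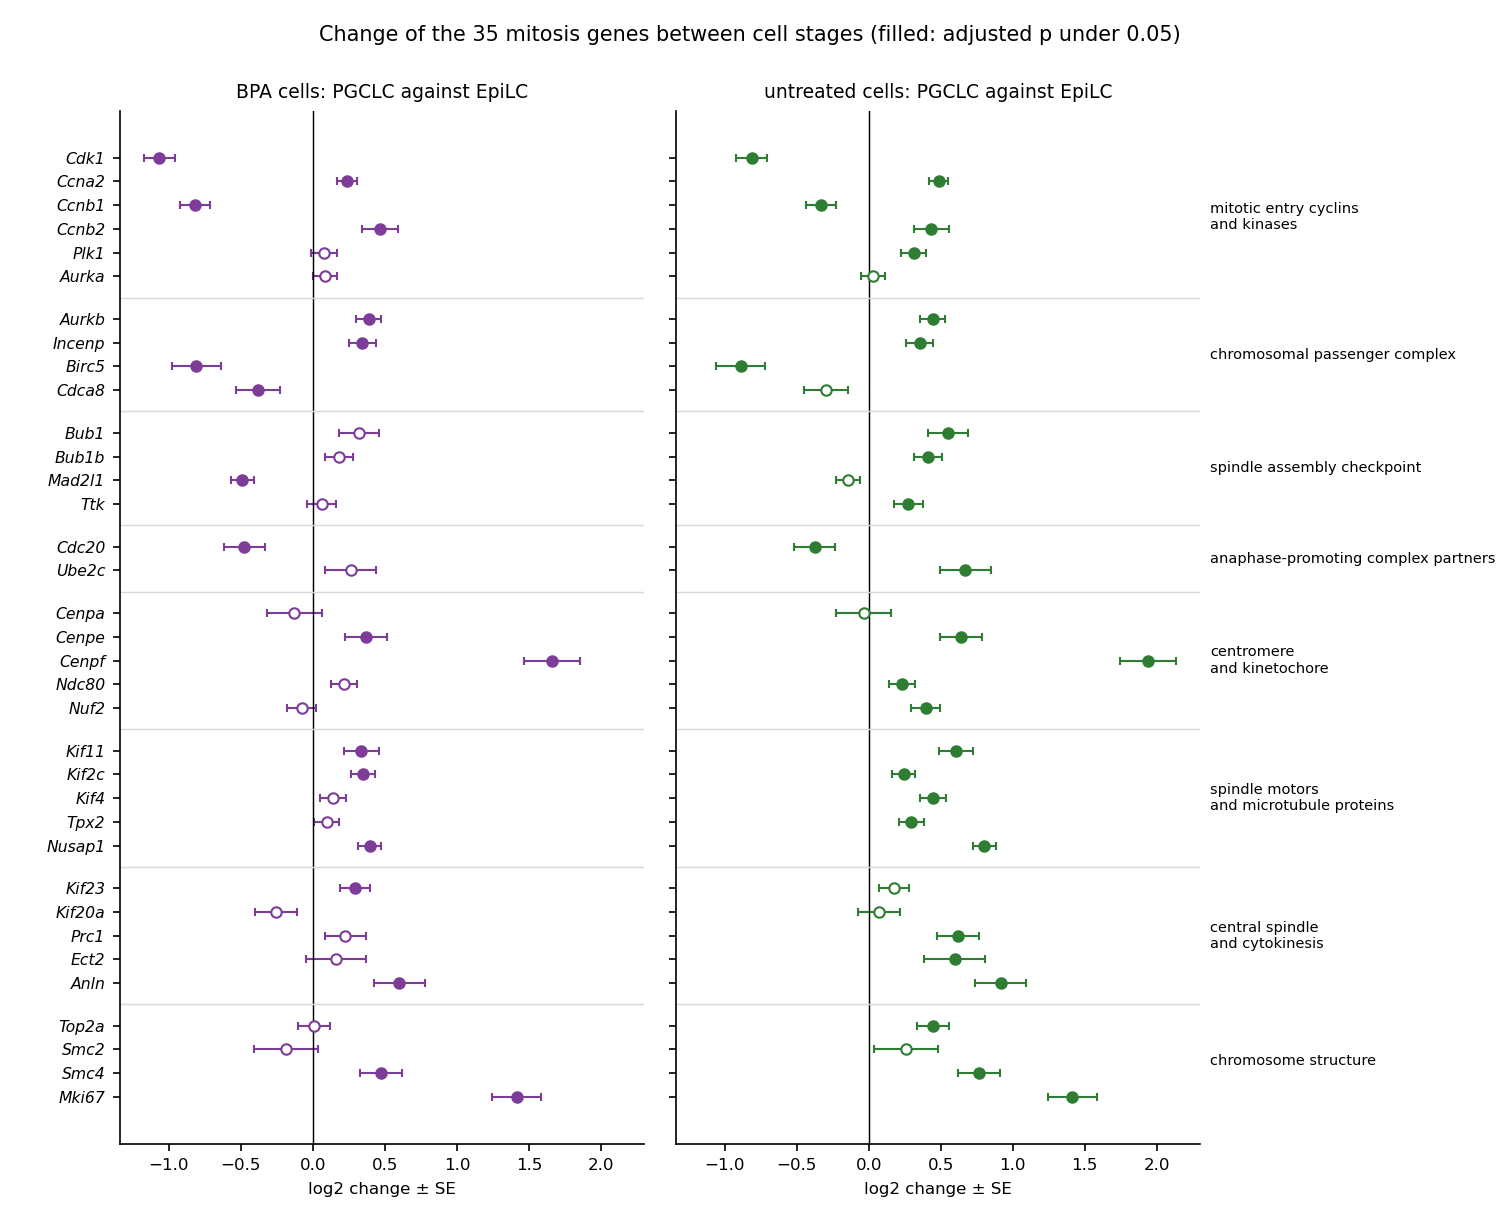
Log2 change of each of the 35 mitosis genes between PGCLCs and EpiLCs (points, with SE), by role, in BPA cells (left) and untreated cells (right); filled points have an adjusted p under 0.05. Cenpf and Mki67 lie farthest to the right in both panels. Cdk1, Ccnb1 and Birc5 lie farthest to the left in BPA cells, and Birc5 and Cdk1 in untreated cells.

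The stage change had rho = 0.25 with transcript length over the 35 genes in BPA cells and 0.43 in untreated cells, against 0.27 and 0.33 over 14094 genes. With offsets for length and GC content, 11 of 35 genes were higher and 9 lower in BPA cells (median 0.09), and 19 higher and 3 lower in untreated cells (median 0.20). These offsets moved the median of all genes by over 0.1 only in BPA cells, from 0.13 without them to 0.00. Without untreated EpiLC replicate 3, 24 genes were higher and 4 lower in untreated cells, with a median of 0.28; Ttk and Cdc20 were lost and Cenpa and Kif20a gained. Without BPA EpiLC replicate 2, 8 genes were higher in BPA PGCLCs, and without untreated PGCLC replicate 2 or untreated PGCLC replicate 3, 2 were lower in untreated PGCLCs.

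DNA replication genes, which act before mitosis, moved in 1 direction between stages. Of 32, 30 were lower in BPA PGCLCs than in BPA EpiLCs and 26 lower in untreated PGCLCs than in untreated EpiLCs, with 0 higher in either. Their summed level was 4197, 4128 and 4647 CPM in BPA PGCLCs and 7366, 7248 and 7618 CPM in BPA EpiLCs, and 4791, 4856 and 4786 CPM in untreated PGCLCs and 7401, 7309 and 7828 CPM in untreated EpiLCs. Named by the smallest p were Gins2 (-2.62 ± 0.15), cyclin E1 (Ccne1, -1.83 ± 0.12), Orc6 (-1.70 ± 0.12) and Pcna (-0.92 ± 0.08) in untreated cells, all with adjusted p of at most 1.23e-06. The summed level of the 35 mitosis genes was 7136, 6884 and 6781 CPM in BPA EpiLCs and 6915, 7042 and 6354 CPM in untreated EpiLCs, below every PGCLC library. This sum is not scaled for length, and the long genes Cenpf and Mki67 weigh much in it. In BPA cells the sum averaged 7872 CPM in PGCLCs and 6934 CPM in EpiLCs. Cenpf averaged 506 and 160 CPM there and Mki67 778 and 292 CPM, while 13 of the 35 were called higher and 6 lower. Of 85 other mitosis genes, 16 were higher (18.8%) and 24 lower (28.2%) in BPA cells, and 22 higher (25.9%) and 15 lower (17.6%) in untreated cells, each at or below the shares of all genes given above except the 24. In untreated cells these included the shugoshin gene Sgol2a (1.65 ± 0.12), the citron kinase gene Cit (1.84 ± 0.16), the Cdk1-inhibiting kinase gene Wee1 (1.17 ± 0.11) and the spindle gene Psrc1 (-1.58 ± 0.16).

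Regulators of the cycle were also split between stages. Mybl2 had 523, 523 and 516 CPM in BPA PGCLCs and 225, 234 and 254 CPM in BPA EpiLCs, and 536, 569 and 585 CPM in untreated PGCLCs and 252, 237 and 255 CPM in untreated EpiLCs. It was higher in PGCLCs by 1.13 ± 0.08 (adjusted p = 2.48e-07) and 1.18 ± 0.08 (adjusted p = 2.11e-07). Foxm1 had -0.06 ± 0.14 in BPA cells and 0.00 ± 0.14 in untreated cells, neither past the threshold. E2f4 (-1.22 ± 0.09), the E2F partner Tfdp1 (-1.24 ± 0.10) and E2f6 (-1.23 ± 0.11) were lower in untreated PGCLCs. Of the early cell cycle genes, Ccnd3 (2.16 ± 0.09), the inhibitor Cdkn1b (1.84 ± 0.12) and the antiproliferative gene Btg1 (1.82 ± 0.13) were higher and Ccnd1 (-2.42 ± 0.16) lower, all with adjusted p under 0.05. Cdkn1a and Cdkn1c were higher in PGCLCs in BPA cells, by 0.75 ± 0.17 (adjusted p = 0.00266) and 0.76 ± 0.23 (adjusted p = 0.0132), and had 0.19 ± 0.17 and 0.10 ± 0.23 in untreated cells, where neither passed. Among 17 anaphase-promoting complex genes, 3 were higher (17.6%) and 5 lower (29.4%) in BPA cells, against 32.5% and 25.0% of all genes. In untreated cells 5 were higher (29.4%) and 6 lower (35.3%), against 30.4% and 25.2% of all genes. Cdc26 (-1.55 ± 0.15) and Anapc10 (1.01 ± 0.13) had the smallest p in untreated cells.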

How the data were processed

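mRNA was sequenced from 12 libraries with a strand-specific kit (NuGEN Universal Plus mRNA-Seq), per the labels' protocols. Reads were demultiplexed with bcl2fastq 2.19.1.403, checked with FastQC, aligned to mm10 with STAR and counted with HTSeq, per the submitters' processing notes; annotation and strand setting are not given in the sources used here, so antisense partners cannot be told apart. The deposited whole-number counts per gene leave out genes under 10 counts in a library, which were taken as 0 here. Rows that name no gene (no feature, ambiguous) stayed out of totals and tests. The authors also deposited CPM values for each stage, used in 1 alternative on the log2(CPM + 1) scale.

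Counts were tested with the edgeR 4.0.16 quasi-likelihood test in R 4.3.3 (filterByExpr, TMM factors, Benjamini-Hochberg adjustment over all genes tested, threshold 0.05), checked on simulated data. That check had a pass mark only for unchanged genes and for changes far larger than the BPA changes of the mitosis genes. BPA effects were fitted on the 6 libraries of each stage, and stage differences and the interaction on all 12. SEs were taken as the absolute log2 change over the root of its F statistic. Printed CPM share 1 TMM scaling. Depth, 11785338 to 34309195 counts per library, sets the counting error, and no pair of replicates was at sampling noise (chi-square per gene 3.55 to 108). BPA PGCLC replicates 1 and 2 were far closer to each other (3.76) than to BPA PGCLC replicate 3 (46.1 and 45.1). Untreated PGCLC pairs had 18.0 to 21.4, and BPA EpiLC replicates 1 and 2 had 3.55. Whether such close pairs are independent cultures is not stated. Lengths come from GENCODE M21 (21695 of 21728 gene identifiers matched). Alternatives were DESeq2 1.42.0, limma 3.58.1, other normalizations and filters, a floor for unlisted genes, a replicate block, left-out libraries, other sets of libraries in the fit, and loess offsets for length and GC content, the last added after the data were seen.

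Deviations of same-numbered EpiLC libraries of both groups had Pearson r of 0.114, 0.209 and 0.347. BPA replicate 1 with untreated replicate 2 had 0.227, and BPA replicate 2 with untreated replicate 1 had 0.0941. Numbers therefore do not single out pairs among replicates 1 and 2, and the main fits used no pairing. The block changed no call in EpiLCs, where 0 genes were called without it and no call could be lost. The 35 genes and the other lists were chosen with earlier results of these data known. All 35 are named; per-library values are given for up to 2 per role with the smallest p in the PGCLC BPA comparison and for the 4 with the largest change, among called genes where any were, in each other comparison. Other lists give up to 4 called genes with the smallest p, and always Foxm1, Mybl2, Cdkn1a and Cdkn1c. Genes or values outside this rule were chosen after their values were seen. Sequences and promoter windows are from RefSeq.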

Additional observations from a re-analysis of the deposited data

Results flagged for a closer look

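The difference between the BPA effects at both stages passed the test for 2 of 174 genes of the other cell cycle lists (1.15%, both below 0). Of all genes, 1.32% passed in either direction and 0.312% below 0, so the share of the lists in either direction was near that of all genes. Neither of the 2 is one of the 35 mitosis genes. Rrm2, a ribonucleotide reductase subunit, had 199, 194 and 231 CPM in BPA PGCLCs and 321, 310.5 and 294 CPM in untreated PGCLCs, against 500.1, 482 and 497 CPM in BPA EpiLCs and 465, 476 and 467 CPM in untreated EpiLCs. The effect in PGCLCs minus that in EpiLCs was -0.64 ± 0.12 on the log2 scale (adjusted p = 0.0228, edgeR quasi-likelihood test). Cdk6, a kinase of the early cell cycle, had 9.75, 10.4 and 10.9 CPM in BPA PGCLCs and 18.7, 27.2 and 21.3 CPM in untreated PGCLCs, against 34.8, 38.7 and 32.8 CPM in BPA EpiLCs and 34.1, 36.2 and 29.7 CPM in untreated EpiLCs, a difference of -1.20 ± 0.21 (adjusted p = 0.0156).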

How the results depend on the processing

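No mitosis gene that passed in the PGCLC BPA comparison, or in the difference of BPA effects under any setting, changed sign under the alternatives run. Over all genes, BPA PGCLCs had 959 genes lower in the main analysis, 1458 with DESeq2, 597 with the replicate block, 548 in 1 fit of all 12 libraries and 1459 with length and GC offsets; of the 35 genes, 10 were lower, 17 with DESeq2 and 5 in the fit of 12 libraries. Leaving out 1 library at a time gave 383 to 1935 genes higher, 268 to 1271 lower and 5 to 15 of the 35 lower, the fewest without BPA replicate 1 (383 higher, 294 lower) or BPA replicate 2 (400 higher, 268 lower). In EpiLCs DESeq2 called 4 genes higher and 12 lower, against 0. For the difference of BPA effects, 177 genes were higher and 55 lower, against 627 and 270 with DESeq2, 408 and 107 with unlisted genes set to 9 counts, 281 and 268 with length and GC offsets, 102 higher with limma voom and 31 lower with the replicate block. DESeq2 called 5 and the offsets 3 of the 35. Leaving out 1 library gave 68 to 592 higher, 15 to 304 lower and 0 to 5 of the 35.

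Between stages in BPA cells, leaving out 1 library gave 8 to 11 of the 35 higher. In untreated cells it gave 2 to 4 lower, the 6 untreated libraries alone gave 15 higher and 2 lower, and unlisted genes set to 9 counts gave 2 lower. A gene that was called in either setting changed sign in 9 cases. In untreated cells these were Cenpa (0.25) and Kif20a (-0.17) without untreated EpiLC replicate 3, their values without each library in turn running from -0.20 to 0.25 for Cenpa and from -0.17 to 0.18 for Kif20a, and Cenpe (-0.055), Kif4 (-0.0098), Top2a (-0.014) and Tpx2 (-0.062) with the offsets. In BPA cells they were Cenpe (-0.12), Kif4 (-0.24) and Top2a (-0.27) with the offsets. The offsets remove a relation with length by construction, and which setting is nearer the cells' levels was not tested.

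With the replicate number as a block, BPA PGCLCs had 8 of the 35 lower, Ccna2 and Nuf2 no longer passing; stage calls were 13 higher and 6 lower in BPA cells and 23 higher and 4 lower in untreated cells. Same-numbered PGCLC libraries of both groups did not deviate together (Pearson r 0.0211, -0.0218 and -0.0603), so they share a number only. In the EpiLC BPA comparison the median SE of the 35 genes was 0.14 with all libraries and 0.07 without untreated EpiLC replicate 3, with 0 of the 35 called in either. Library naming and BPA cannot be told apart in PGCLCs.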
